A study of Mus musculus with 309 samples.

Results

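The 34 genes described here mark T cells and natural killer (NK) cells or carry signals inside them. They were taken by symbol from a table of 55291 gene symbols, and all 34 were present and passed the filter on low counts. By role they comprised 4 chains of the T cell receptor complex, 3 coreceptor chains, 6 T cell surface and costimulatory receptors, 6 proximal signalling proteins, 2 transcription factors, 5 NK receptors, 2 cytokine or chemokine receptors and 6 effector genes. Their poly(A) RNA was measured in 309 whole mammary tumours of 24 mouse models, which the series' title places under triple-negative breast cancer. The treated groups were trametinib, an inhibitor of the kinase MEK (65 tumours, 22 models), erlotinib, an inhibitor of the epidermal growth factor receptor (66 tumours, 22 models), carboplatin plus paclitaxel, a chemotherapy pair (66 tumours, 22 models), and anti-PD1 plus anti-CTLA4, antibodies against 2 inhibitory receptors of T cells (48 tumours, 16 models). The other 64 tumours, from 18 models, were untreated. The labels name the models (4T1, E0771, T12, T11 and T11-APOBEC, KPB25L with KPB25L-UV and KPB25L-APOBEC, C3-TAG, MMTV-Neu and MMTV-PyMT, K14-TRT, p53RB-426, p53RB-624 and p53RB-626, KPB1-B and KPB1-A, and the numbered models 2336, 2250, 2225, 2224, 9263, 2208 and 2153). The sources used here give no strain, age, dose, duration or genotype beyond these names, so what each treated group received is known by agent only.

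T cells recognise peptide on MHC molecules through a receptor whose variable chains signal through the CD3 chains (Cd3d, Cd3e, Cd3g) and the zeta chain (Cd247). The coreceptors CD4 and CD8 bring the kinase Lck to that complex, Zap70 is then recruited, and the scaffold Lat passes the signal on. NK cells lack a rearranged antigen receptor and use germline-encoded receptors such as those of Ncr1, Klrb1c, Klrk1 and Klrd1; several of these are also found on activated CD8 T cells. Both lineages use the transcription factors Tbx21 (T-bet) and Eomes and release interferon gamma and the chemokines Ccl5 and Xcl1. In a whole tumour, fewer such cells and less RNA per cell cannot be told apart.

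Promoter sequences of 21 of the 34 members, 25 promoters in all, were found in the RefSeq table of build GRCm38.p6, each 250 bases before to 50 bases after a start site. The promoters below are shown because Cd3d and Cd3g mark T cells, Ncr1 marks NK cells and Lck was abundant in some tumours with little Cd3e. They run 5′ to 3′ on the strand of the gene, with capitals for matches to TGTGGT (RUNX), AGGAAGT (ETS) or AGGTGTG (T-box), searched on both strands. The letters of the motifs do not contain one another. Cd3d (chr9:44981536-44981835, + strand) and Cd3g (chr9:44980382-44980681, - strand) start 1355 bases apart in opposite directions; Ncr1 lies at chr7:4337465-4337764 (+ strand), and the pair of Lck promoters at chr4:129558323-129558622 and chr4:129573592-129573891 (- strand).
Cd3d: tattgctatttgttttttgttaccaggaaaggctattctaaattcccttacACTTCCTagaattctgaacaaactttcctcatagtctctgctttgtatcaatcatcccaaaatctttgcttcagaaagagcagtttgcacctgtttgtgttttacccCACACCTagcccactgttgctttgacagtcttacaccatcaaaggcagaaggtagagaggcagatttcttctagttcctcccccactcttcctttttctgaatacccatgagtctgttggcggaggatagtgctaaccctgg
Cd3g: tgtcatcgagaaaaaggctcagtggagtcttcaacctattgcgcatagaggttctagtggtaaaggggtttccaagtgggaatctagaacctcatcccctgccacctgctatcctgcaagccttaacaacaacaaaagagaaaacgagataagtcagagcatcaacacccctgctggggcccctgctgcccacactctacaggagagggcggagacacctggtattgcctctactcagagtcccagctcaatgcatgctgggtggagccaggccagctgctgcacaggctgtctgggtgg
Ncr1: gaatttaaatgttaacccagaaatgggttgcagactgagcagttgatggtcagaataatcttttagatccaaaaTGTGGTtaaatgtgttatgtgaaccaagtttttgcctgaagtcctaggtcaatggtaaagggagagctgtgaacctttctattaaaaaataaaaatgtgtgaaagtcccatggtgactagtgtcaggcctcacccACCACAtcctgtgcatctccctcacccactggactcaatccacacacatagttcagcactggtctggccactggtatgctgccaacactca
Lck, first promoter: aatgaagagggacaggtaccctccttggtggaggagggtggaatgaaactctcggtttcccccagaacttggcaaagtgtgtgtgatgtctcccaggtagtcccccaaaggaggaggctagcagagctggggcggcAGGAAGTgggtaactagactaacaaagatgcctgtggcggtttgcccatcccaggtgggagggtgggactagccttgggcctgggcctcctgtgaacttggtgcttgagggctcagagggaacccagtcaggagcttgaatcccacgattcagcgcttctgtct
Lck, second promoter: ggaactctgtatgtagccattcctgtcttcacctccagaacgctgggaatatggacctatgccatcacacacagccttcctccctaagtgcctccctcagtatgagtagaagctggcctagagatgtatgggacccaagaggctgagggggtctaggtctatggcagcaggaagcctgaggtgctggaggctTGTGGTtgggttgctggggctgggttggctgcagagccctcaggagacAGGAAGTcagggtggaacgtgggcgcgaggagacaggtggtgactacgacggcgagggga
Counted once a gene, since promoters of 1 gene can overlap, 10 of the 21 members (47.6%) held the RUNX letters, against 18.9% of the 27025 genes in the table. The ETS letters stood in 9 (42.9%), against 10.7% of all, and the T-box letters in 2 (9.52%), against 6.72%. These are letter matches in a window and no measure of binding.

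Library totals ranged from 12.1 to 226.2 M estimated counts (M, 1000000), and the medians were 39.3 M for trametinib, 34.3 M for erlotinib, 103.4 M for carboplatin plus paclitaxel, 112.9 M for the antibodies and 76.9 M for untreated tumours. Values are counts per 1000000 counts (CPM) after scaling between libraries. Ifng, Sh2d1a and Fcrl6 were the rarest members: they reached 10 counts in 87, 93 and 101 of the 309 tumours. Summed CPM of 6 epithelial markers lay between 12.0 and 6655 CPM over all tumours, and no tumour of K14-TRT, T11, T11-APOBEC, E0771, p53RB-624 or p53RB-626 exceeded 478 CPM. B cell and follicle markers summed to at most 138.0 CPM in any tumour, with a median of 1.74 CPM. Each treatment was also compared using untreated tumours whose running library numbers lay within 100 of the treated ones, called adjacent here; the labels do not say what the numbers follow.

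All 34 members differed between the 16 models with 3 or more untreated tumours (edgeR quasi-likelihood F-test, Benjamini-Hochberg adjusted), as did 98.1% of all genes tested. Cd3e averaged 4.59 ± 2.41 CPM in T11-APOBEC (SD, n = 3) and 3.27 ± 1.89 CPM in K14-TRT (n = 9). At the other end it averaged 0.0176 ± 0.00912 CPM in KPB1-A (n = 3) and 0.174 ± 0.270 CPM in KPB1-B (n = 6). The single untreated E0771 tumour held 13.0 CPM, above every other untreated tumour, but 1 tumour gives no spread for that model. Cd8a, the CD8 alpha chain, followed with 6.50 ± 3.82 CPM in K14-TRT and 3.36 ± 3.01 CPM in T11-APOBEC, against 0.0848 ± 0.0134 CPM in KPB1-A. E0771 held 30.2 CPM of it. Untreated KPB1-A held the lowest mean of all 4 receptor chains and of Cd8a and Cd8b1. The 3 untreated KPB1-A tumours together held 4 counts of Cd3e and 1 count of Cd3d.

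**Figure D1:**
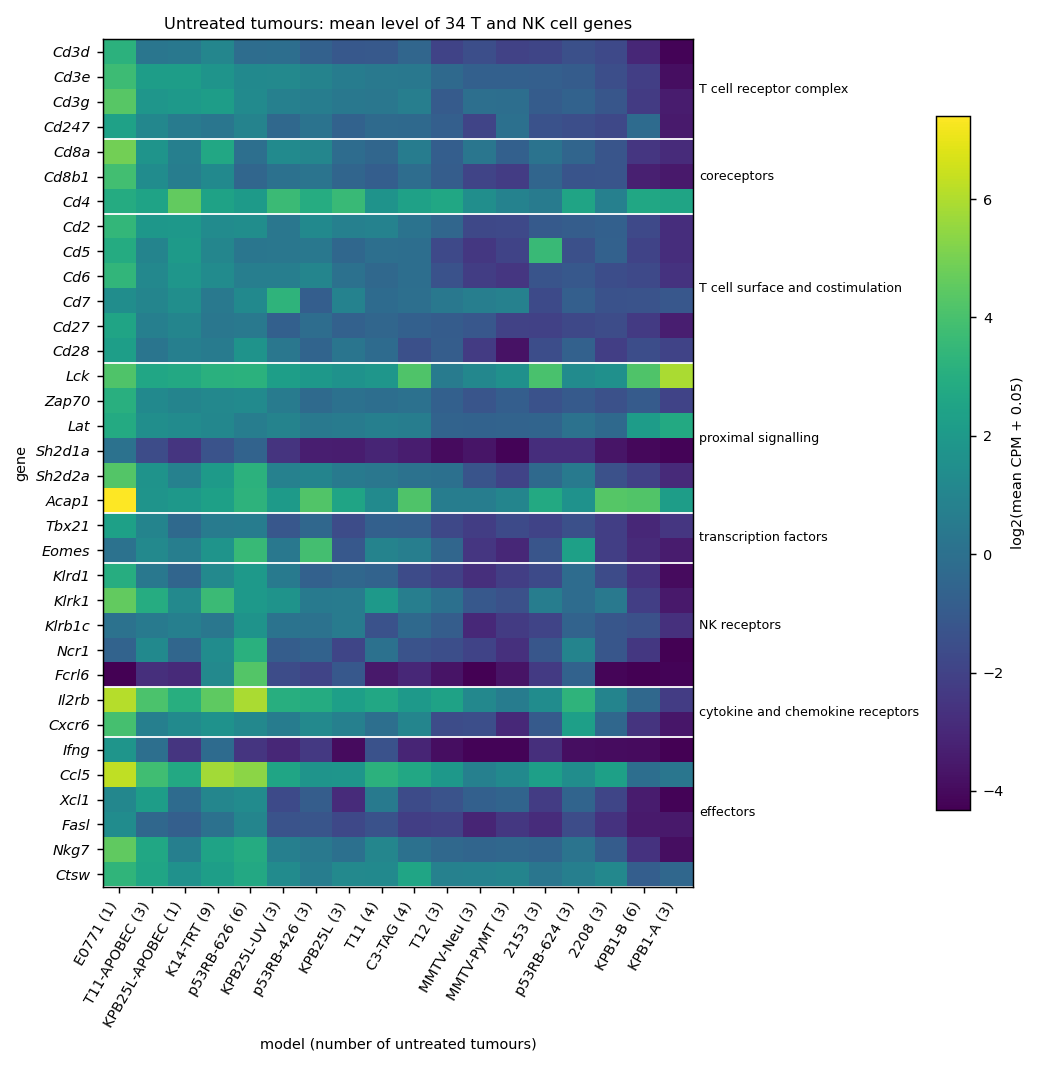
Heat map of untreated levels of the 34 genes (rows) in 18 models (columns, ordered by Cd3e), coloured by log2 of the mean CPM plus 0.05. Most rows darken towards the same models, while 1 model stands out for Lck, Cd5 and Acap1, and 2 or 3 models do for Cd4 and Eomes.

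NK receptor genes had their own order of models. Ncr1, which encodes the activating receptor NKp46, averaged 8.73 ± 2.17 CPM in p53RB-626 (SD, n = 6). That was 3.37 times the next model mean, 2.59 ± 1.46 CPM in K14-TRT (n = 9), and the tumours of the pair did not overlap: 5.91 to 11.9 CPM in p53RB-626 and 0.859 to 5.07 CPM in K14-TRT. No count of Ncr1 was found in the 3 untreated KPB1-A tumours, which allows a level of up to 0.0128 CPM over the group (3 counts). Klrb1c, a lectin-like NK receptor, was likewise highest in p53RB-626, at 3.19 ± 0.569 CPM. Klrk1, which encodes NKG2D, was not: it averaged 12.8 ± 7.57 CPM in K14-TRT, 7.52 ± 3.85 CPM in T11-APOBEC and 4.01 ± 0.812 CPM in p53RB-626. NKG2D is carried by CD8 T cells as well as NK cells.

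Il2rb, Sh2d2a and Fcrl6 also had their highest model mean in p53RB-626, while Ccl5, Xcl1 and Ifng did not. Il2rb, the shared beta chain of the interleukin 2 and 15 receptors, averaged 60.1 ± 10.5 CPM there, 2.64 times the 22.7 ± 10.2 CPM of K14-TRT. Sh2d2a, a T cell adaptor, stood at 9.18 ± 0.805 CPM in p53RB-626 and at 4.07 ± 2.19 CPM in K14-TRT. Fcrl6, an Fc receptor-like protein known from human NK and cytotoxic T cells, averaged 19.2 ± 13.1 CPM in p53RB-626 and 2.21 ± 1.5 CPM in K14-TRT, 8.69 times apart, and had no count in the 6 untreated KPB1-B tumours, which allows up to 0.00707 CPM over the group. Ccl5, a chemokine made by activated T and NK cells, averaged 55.1 ± 31.8 CPM in K14-TRT and 41.1 ± 8.49 CPM in p53RB-626, against 0.892 ± 1.44 CPM in KPB1-B. Xcl1, the chemokine that attracts cross-presenting dendritic cells, was highest in T11-APOBEC at 4.57 ± 1.68 CPM. Ifng stayed low everywhere: the highest model mean with replicates was 0.916 ± 0.520 CPM in T11-APOBEC, and no count was found in untreated KPB1-A, with the same limit as for Ncr1.

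**Figure D2:**
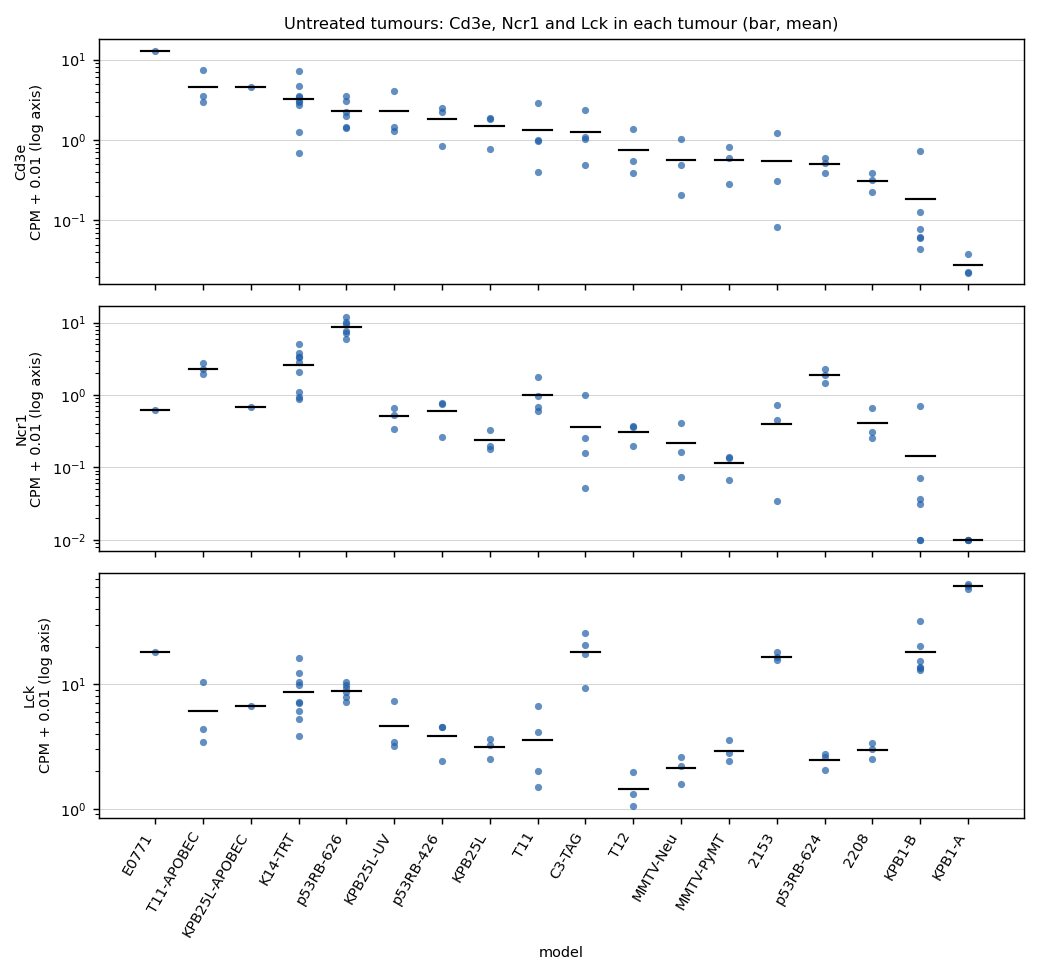
Cd3e, Ncr1 and Lck in each untreated tumour (points, CPM plus 0.01 on a log axis) by model, in the same order of models in each panel. Ncr1 peaks in p53RB-626, and Lck is highest in KPB1-A, the model lowest in Cd3e.

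Several members stood apart from the T cell markers in single models. Lck, the first kinase of T cell receptor signalling, held 57.6, 63.5 and 61.2 CPM in the untreated KPB1-A tumours, 3.34 times the next model mean. In 9263, which had treated tumours only, Lck lay between 39.9 and 70.5 CPM while Cd3e did not exceed 0.229 CPM. In both models Lck was abundant in tumours nearly devoid of the receptor chains. Lat averaged 6.91 ± 0.922 CPM in untreated KPB1-A. Cd5, a T cell surface receptor that dampens signalling and is also carried by some B cells, held 11.4, 13.2 and 12.5 CPM in untreated 2153 tumours, 6.05 times the next model mean, with Cd3e at 0.302, 0.0720 and 1.23 CPM. Acap1, a GTPase-activating protein of membrane recycling, held 169 CPM in the untreated E0771 tumour and 124 to 231 CPM in all 13 E0771 tumours. Eomes averaged 15.0 ± 3.95 CPM in p53RB-426 and 11.7 ± 0.810 CPM in p53RB-626. Cd7, a T and NK cell surface protein, held 14.9, 8.2 and 6.48 CPM in untreated KPB25L-UV, 4.29 times the next model mean. Cd4, carried in mice by helper T cells and by some dendritic cells, was highest in the KPB25L family: 23.9 CPM in the single KPB25L-APOBEC tumour, 12.9 ± 1.06 CPM in KPB25L-UV and 12.1 ± 5.19 CPM in KPB25L. It never fell to 0 in any of the 309 tumours. Which cells carried these transcripts was not measured.

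Within groups of the same model and treatment, tumours high in Cd3e were also high in most other members. Over 307 tumours in 98 groups, the deviations of log2 CPM from the group mean gave Pearson correlations with Cd3e of 0.848 for Cd3g, 0.799 for Il2rb, 0.774 for Nkg7 and 0.768 for Cd2. Spearman's rho was 0.822, 0.723, 0.714 and 0.706 for the same genes. The lowest were Cd28 at r = 0.404, Fcrl6 at 0.305 and Acap1 at 0.183, with Lck at 0.455 and Cd4 at 0.472. NK receptors were intermediate, with 0.618 for Ncr1 and 0.565 for Klrb1c. These values are a description: each pair of genes shares its libraries, and without the 2 tumours farthest in Cd3e they were 0.825 for Cd3g, 0.563 for Ncr1 and 0.130 for Acap1.

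T cell receptor genes (8 members: Cd3d, Cd3e, Cd3g, Cd8a, Cd8b1, Cd5, Cd6 and Cd28) were set against NK receptor genes (4 members: Klrd1, Klrk1, Klrb1c and Ncr1) by the difference of their mean log2 CPM in each tumour. The offset of that difference depends on gene length, so only tumours or models can be compared by it. In untreated 2153, where Cd5 stood apart from the T cell markers, Cd5 raises the difference (0.76). Its median over the 16 models with 3 or more untreated tumours was 0.06. It was lowest in p53RB-626, at -1.74 ± 0.283 (SD, n = 6), and in p53RB-624, at -1.06 ± 0.00929 (n = 3). It was highest, with replicates, in MMTV-Neu at 0.97 ± 0.899 (n = 3), with 1.82 in the single E0771 tumour. Relative to the other models, p53RB-626 tumours held more NK receptor RNA for their T cell receptor RNA.

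Trametinib was compared with untreated tumours over 16 models (48 treated tumours against 54 untreated). Pooled over models, 12 of the 34 members rose and 1 fell (edgeR quasi-likelihood test with the model as a factor, adjusted p under 0.05), against a background of 28.2% of all genes changed, 14.1% higher and 14.1% lower. The median log2 change was 0.43 over the members and was near 0 over all genes. Cd4 rose most: the lowest, median and highest values were 1.59, 7.55 and 35.7 CPM in trametinib tumours, against 1.08, 4.88 and 17.5 CPM in untreated tumours (log2 change 0.84 ± 0.16 SE, adjusted p = 1.45e-05, higher in 14 of 16 models). Klrd1, the CD94 partner chain of NK receptors, ran with a median of 0.741 CPM in trametinib tumours and 0.391 CPM in untreated tumours (0.73 ± 0.21, adjusted p = 0.00445). Cxcr6, a chemokine receptor of tissue-resident lymphocytes, had medians of 1.48 CPM in trametinib tumours and 0.936 CPM in untreated tumours (0.73 ± 0.19, adjusted p = 0.00184).

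Of the receptor chains, Cd3g (0.67) and Cd3e (0.57 ± 0.22, adjusted p = 0.0394) passed the test with trametinib. Cd3e ran at 0.0801, 1.22 and 19.9 CPM in trametinib tumours (lowest, median, highest), against 0.0121, 0.813 and 13.0 CPM in untreated tumours. Ncr1 rose by 0.61 ± 0.22 (adjusted p = 0.0292), with 0.0563, 0.624 and 11.2 CPM in trametinib tumours, against 0, 0.382 and 11.9 CPM in untreated tumours. Nkg7, Cd7, Il2rb, Fasl, Cd28 and Ctsw rose by 0.33 to 0.53, each in 10 to 13 of 16 models. Lck was the member that fell, by 0.29 (log2, adjusted p = 0.0353, lower in 11 of 16 models). Cd8a missed the threshold at 0.52 ± 0.22 (adjusted p = 0.0652), with medians of 0.993 CPM in trametinib tumours and 0.681 CPM in untreated tumours. Klrk1 (0.16, adjusted p = 0.543), Klrb1c (0.16, adjusted p = 0.518), Ccl5 (0.27, adjusted p = 0.125), Eomes (0.09, adjusted p = 0.784) and Ifng (-0.09, adjusted p = 0.875) did not pass. The groups overlapped for every one of these genes. Among 4 pan-leukocyte markers, Coro1a fell by 0.49 and Cd52 fell by 0.44 with trametinib, and Csf1r and Mrc1 of the 7 macrophage markers were lower too, and no marker of either list rose; their part in the members' change was not tested.

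The trametinib count depended on which tumours entered. With adjacent untreated tumours only (11 models), 2 members rose, Cd4 by 0.61 and Ccl5 by 0.37, and 0 fell, where 13.2% of genes were higher and 15.8% lower. The count of 13 changed members became 5 without model 2153, 7 without MMTV-Neu, 20 without E0771 and 0 when each model gave 1 difference. In that last setting 1134 of 25685 genes passed.

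Erlotinib changed 0 of the 34 members over the same 16 models by edgeR, where 4.24% of all genes changed, 1.61% higher and 2.63% lower. At an unadjusted p under 0.05 there were 2 members, with 19.4% of all genes, DESeq2 called 0 as well, and limma on the authors' deposited normalized table called 1. The median log2 change over members was -0.06. Cd3e held 0.0357, 0.797 and 7.53 CPM in erlotinib tumours (lowest, median, highest), against 0.0121, 0.813 and 13.0 CPM in untreated tumours (-0.01 ± 0.31, adjusted p = 0.992). Cd8a had medians of 0.518 CPM in erlotinib tumours and 0.681 CPM in untreated tumours (-0.34 ± 0.28, adjusted p = 0.549). Cd4 had medians of 5.79 CPM in erlotinib tumours and 4.88 CPM in untreated tumours (0.37 ± 0.17, adjusted p = 0.213). Medians in erlotinib tumours were 0.392 CPM for Ncr1, 0.470 CPM for Klrb1c, 1.05 CPM for Klrk1, 4.03 CPM for Ccl5, 0.780 CPM for Eomes and 0.0432 CPM for Ifng. In untreated tumours they were 0.382 CPM for Ncr1, 0.544 CPM for Klrb1c, 1.14 CPM for Klrk1, 3.70 CPM for Ccl5, 0.802 CPM for Eomes and 0.0338 CPM for Ifng. None of these 6 passed (adjusted p of 0.648 or more). Against adjacent untreated tumours 2 members fell, Lck by 0.62 (adjusted p = 0.019) and Lat by 0.67 (adjusted p = 0.0267), each lower in 9 of 11 models, where 3.38% of genes changed, 1.41% higher and 1.97% lower. Without E0771 that count was 1, and the pooled count became 1 without MMTV-Neu. Against the adjacent untreated tumours 1 of the 34 point estimates lay above 0, and the median log2 change over members was -0.40. At an unadjusted p under 0.05 by edgeR there were 14 members in that comparison, with 19.2% of all genes.

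Carboplatin plus paclitaxel gave the broadest pooled change: 22 of 34 members rose and 0 fell over 16 models, against 11.6% of all genes higher and 5.89% lower. All 34 point estimates lay above 0, with a median log2 change of 0.82. By role, 3 of 4 receptor chains, 2 of 3 coreceptor chains, 2 of 6 T cell surface receptors, 4 of 6 signalling proteins, 1 of 2 transcription factors, 4 of 5 NK receptors, both cytokine and chemokine receptors and 4 of 6 effectors rose. Fcrl6 rose most, by 2.52 ± 0.38 (adjusted p = 2.03e-06, higher in 15 of 16 models), with medians of 0.107 CPM in treated tumours and 0.0353 CPM in untreated tumours. Ccl5 had a lowest, median and highest value of 0.497, 13.1 and 163 CPM in treated tumours, against 0.0862, 3.70 and 77.0 CPM in untreated tumours (1.39 ± 0.23, adjusted p = 6.63e-06, higher in 14 of 16 models). Sh2d1a, the adaptor SAP of T and NK cells, rose by 1.32 ± 0.39 (adjusted p = 0.0115). Acap1 rose by 0.66 ± 0.13 (adjusted p = 0.000142) and was the one member higher in 16 of 16 models.

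With chemotherapy Cd8a held 0.0758, 1.45 and 11.3 CPM in treated tumours (lowest, median, highest), against 0.0166, 0.681 and 30.2 CPM in untreated tumours (0.85 ± 0.29, adjusted p = 0.0284). Ncr1 held 0, 0.856 and 14.2 CPM in treated tumours, against 0, 0.382 and 11.9 CPM in untreated tumours (1.06 ± 0.34, adjusted p = 0.0234). Klrk1 rose by 1.01 ± 0.31 (adjusted p = 0.0159), with medians of 1.72 CPM in treated tumours and 1.14 CPM in untreated tumours. Cd3d (1.21) and Cd3g (1.09) passed the test, while Cd3e missed it at 0.73 ± 0.30 (adjusted p = 0.0842), with medians of 1.07 CPM in treated tumours and 0.813 CPM in untreated tumours. Eomes (0.71, adjusted p = 0.0546), Ifng (1.11, adjusted p = 0.0561), Klrb1c (0.58, adjusted p = 0.11) and Cd4 (0.31, adjusted p = 0.168) did not pass. Of the pan-leukocyte markers 3 of 4 rose, and of the macrophage markers 5 of 7; their part in the members' change was not tested. Against adjacent untreated tumours (7 models) only Fcrl6 rose (2.55, adjusted p = 0.00322), where 5.87% of genes changed, 2.12% higher and 3.75% lower. The count of 22 was 7 against the untreated tumours that carry the same set label as the treated ones, and 0 when each model gave 1 difference. In that last setting 0 of all 26710 genes passed, so it shows nothing particular to the members.

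Anti-PD1 plus anti-CTLA4 (36 tumours against 41 untreated, 12 models) raised 4 of the 34 members and lowered 0, against 8.14% of genes changed, 4.98% higher and 3.15% lower. The 4 were Fcrl6 (1.73 ± 0.40, adjusted p = 0.00318), Cxcr6 (0.91 ± 0.27, adjusted p = 0.0223), Cd3d (0.89 ± 0.27, adjusted p = 0.0307) and Cd3g (0.88 ± 0.27, adjusted p = 0.0329). Medians of Cxcr6 were 1.05 CPM in antibody-treated tumours and 0.538 CPM in untreated tumours, and it was higher in 10 of 12 models. Cd8a held 0.0449, 0.784 and 99.9 CPM in antibody-treated tumours (lowest, median, highest), against 0.0166, 0.501 and 30.2 CPM in untreated tumours, and did not pass (0.59 ± 0.27, adjusted p = 0.169). Cd3e (0.53, adjusted p = 0.237), Ifng (1.05, adjusted p = 0.0735), Klrk1 (0.44, adjusted p = 0.341), Cd4 (0.20, adjusted p = 0.439), Klrb1c (0.15, adjusted p = 0.729), Ncr1 (0.14, adjusted p = 0.847), Ccl5 (0.12, adjusted p = 0.782) and Eomes (-0.36, adjusted p = 0.382) did not pass either. The 5 skeletal muscle markers all fell in this comparison, by up to 3.98 for Myh4, and the part of tissue makeup was not tested. The count of 4 became 1 without KPB1-A, 2 without MMTV-Neu, 1 without the tumours highest in B cell markers and 0 when each model gave 1 difference. In that last setting 0 of all 25562 genes passed. Against adjacent untreated tumours (3 models) 0 of 31 members tested passed, where 0.0147% of all genes did.

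The comparisons above share untreated tumours, so pairs of treatments were also compared directly. Trametinib against erlotinib (65 against 66 tumours, 22 models) gave 15 members higher and 0 lower, against 10% of all genes higher and 8.11% lower. The CD8 chains led: Cd8b1 differed by 0.95 ± 0.21 and Cd8a by 0.92 ± 0.21 (adjusted p = 0.00045 for both), with medians of Cd8a of 0.713 CPM in trametinib tumours and 0.325 CPM in erlotinib tumours, higher in 17 of 22 models. Fcrl6 (0.86), Nkg7 (0.70), Tbx21 (0.69), Cd7 (0.66), Cd3g (0.64), Cd3e (0.50 ± 0.17, adjusted p = 0.0298) and Ccl5 (0.42 ± 0.12, adjusted p = 0.0108) were among the others. Cd4, which led the trametinib comparison with untreated tumours, did not pass here (0.31 ± 0.18, adjusted p = 0.222), nor did Ncr1 (0.45, adjusted p = 0.137), Klrk1 (0.29), Klrb1c (0.11), Eomes (0.18) or Ifng (0.20). All 4 pan-leukocyte markers, 4 of 7 macrophage markers and 3 of 6 neutrophil markers were lower in this comparison (medians -0.39, -0.33 and -0.50), and their part was not tested. Without T11-APOBEC the count was 9, and with 1 difference per model it was 0, where 252 of 23207 genes passed.

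Anti-PD1 plus anti-CTLA4 against carboplatin plus paclitaxel (48 tumours each, 16 models) gave 0 members higher and 6 lower, against 7.65% of all genes higher and 7.67% lower. Of the 6, Fcrl6 (-1.37), Klrd1 (-1.35) and Ncr1 (-1.23) were grouped here as NK receptors, though Fcrl6 is known from human cells. Eomes (-1.24), Ccl5 (-0.95) and Sh2d2a (-0.88) are expressed in both lineages. Ncr1 held a median of 0.243 CPM in antibody-treated tumours and 0.558 CPM in chemotherapy tumours (± 0.34 SE, adjusted p = 0.00795, lower in 13 of 16 models). Eomes held medians of 0.204 CPM in antibody-treated tumours and 0.731 CPM in chemotherapy tumours and was lower in 15 of 16 models (± 0.31, adjusted p = 0.00367). Differences of the T cell genes were -0.47 for Cd3e (adjusted p = 0.324), -0.35 for Cd8a (adjusted p = 0.503) and -0.31 for Cd4 (adjusted p = 0.268) and did not pass. Klrk1 (-0.81, adjusted p = 0.089), Klrb1c (-0.70, adjusted p = 0.0917) and Ifng (-0.37) did not pass. In the same comparison 4 of 7 macrophage, 2 of 4 pan-leukocyte, 2 of 6 dendritic cell and 5 of 5 skeletal muscle markers were lower (medians -0.47, -0.55, -0.60 and -2.21), and their part was not tested. The count of 6 was 15 without E0771, 3 with limma on the authors' table, 13 with DESeq2 and 0 with 1 difference per model. In that last setting 0 of all 24782 genes passed. The library numbers of both arms ran close together in some models but lay far apart in others, E0771 among them. This comparison was not repeated on tumours with adjacent library numbers. In the models with distant numbers, treatment cannot be told apart from what the library numbers follow.

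An interaction test found differences between models in 30 of 34 members for trametinib, 32 for erlotinib, 32 for carboplatin plus paclitaxel and 9 for the antibodies, where 57.7%, 52.6%, 46.3% and 34% of all genes did. E0771 has 1 untreated tumour, so its tests assume that this tumour varies like those of other groups. Tests within single models made 22 rises and 7 falls over the 16 models for trametinib, in 9 models. For erlotinib there were 41 rises and 7 falls, in 8 models. For chemotherapy there were 94 rises and 11 falls, in 10 models, and for the antibodies 17 rises and 0 falls, in 4 of 12 models. As shares of member tests these were 5.33% for trametinib, 8.82% for erlotinib, 19.3% for chemotherapy and 4.17% for the antibodies. Of all gene tests 8.04%, 6.16%, 9.16% and 2.85% were called, in the same order. No untreated tumour was adjacent for trametinib in 2153 or for erlotinib in MMTV-Neu and MMTV-PyMT. Nor was any for chemotherapy in 2153, KPB25L, C3-TAG, MMTV-PyMT and T11, or for the antibodies in KPB1-A. Several contrasts with fewer calls had none either. In all of these, treatment cannot be told apart from what the library numbers follow. For chemotherapy in KPB1-A all 3 untreated tumours were adjacent.

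**Figure D3:**
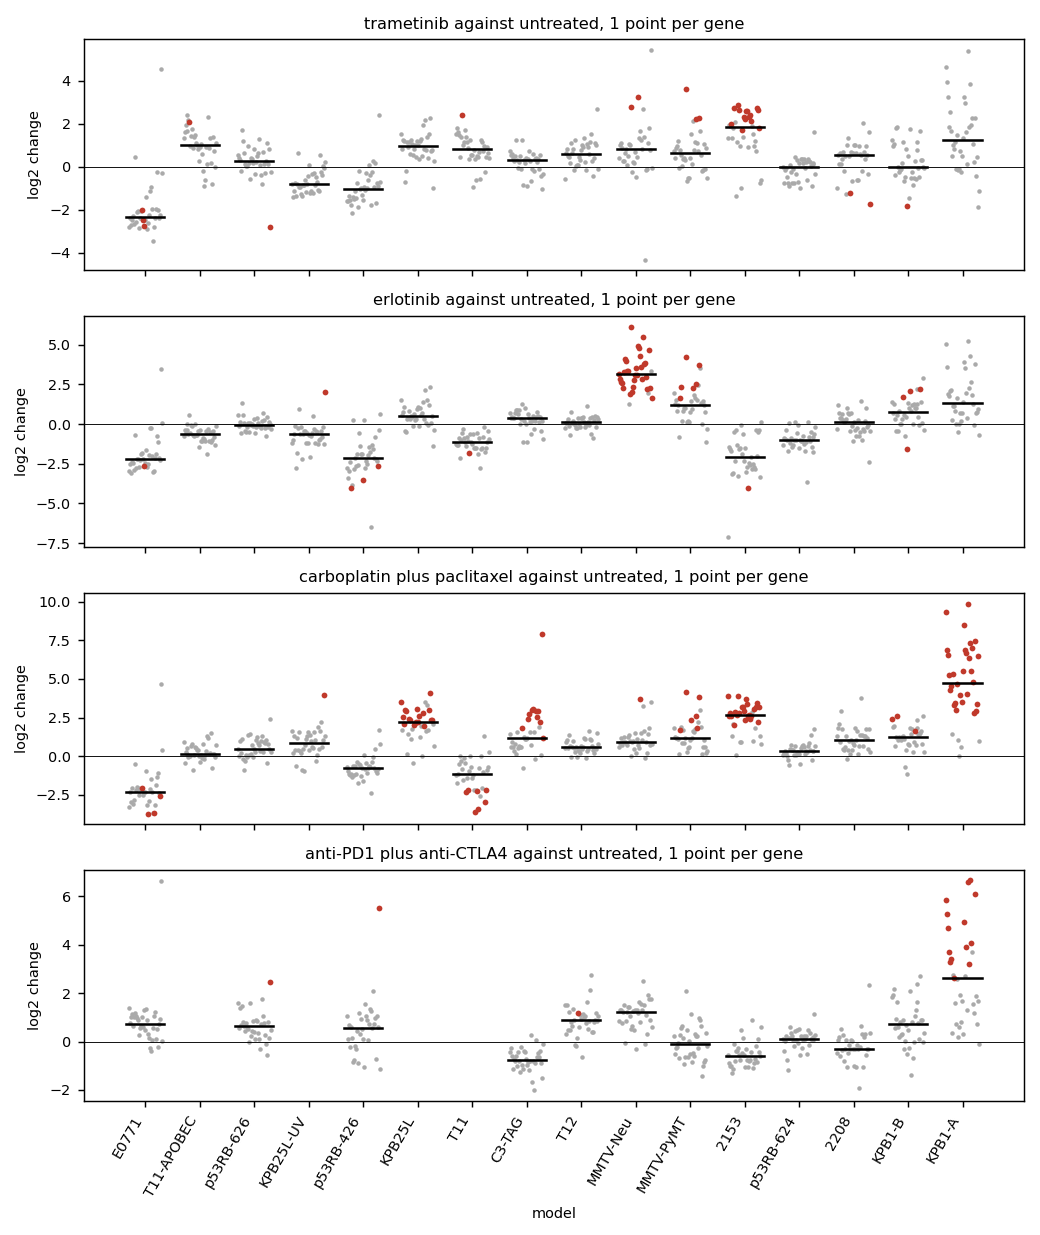
Log2 change of each of the 34 genes (points) in each model (columns), 1 panel for each treatment against untreated tumours. Red points passed the test within the model and grey did not. Bars mark the median over the 34 genes in that model. Bars lie on both sides of 0 in each panel, and chemotherapy holds the most red points.

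Trametinib raised 15 members in 2153 (20.4% of all genes changed there). Cd4 held 9.18, 9.52 and 9.33 CPM in the trametinib tumours of 2153, against 1.24, 1.08 and 1.89 CPM in untreated tumours (log2 change 2.74, adjusted p = 4.43e-05). The groups were far apart. In T11, Cd4 held 14.7, 20.1 and 16.4 CPM with trametinib, against 4.89, 1.74, 3.78 and 2.18 CPM untreated (2.43, adjusted p = 9.35e-05), and it was the one member called there (12.9% of genes). T11-APOBEC likewise had Cd4 alone (2.07, with 4.38% of genes changed), a call that was lost without the tumours numbered 1 or 3. Cd3e held 19.9, 5.56 and 17.3 CPM in trametinib tumours of T11-APOBEC, against 3.47, 7.35 and 2.95 CPM in untreated tumours, groups that overlapped. Cd28, the costimulatory receptor, held 0.519, 0.302 and 0.219 CPM in trametinib tumours of MMTV-PyMT, against 0.0143, 0.0185 and 0.0422 CPM in untreated tumours (3.62, adjusted p = 0.000236), where the untreated tumours together held 6 counts and 27.6% of all genes changed. The 15 calls in 2153 became 7 and 1 without the tumours numbered 1 and 2. All 7 falls with trametinib lay in models other than these. Lck fell by 1.22 and Acap1 by 1.74 in 2208 (12.2% of genes changed), Lat fell by 1.83 in KPB1-B (13.2%) and Fcrl6 by 2.78 in p53RB-626 (3.47%). Lck, Zap70 and Lat, the kinases and the adaptor that act directly below the receptor, were lower in E0771 than in its single untreated tumour (-2.0, -2.46 and -2.73, 4.71% of genes). MMTV-Neu had Klrd1 (3.27) and Cd28 (2.78) higher (22.3%). Without the tumours of 1 number in turn, the MMTV-Neu count stayed at 2, while the calls in 2208, KPB1-B and p53RB-626 were lost at least once and the 3 in E0771 became 2 each of the times it could be run.

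Erlotinib raised 31 of 34 members in MMTV-Neu and lowered 0 (37.2% of all genes changed there). Cd4 held 17.4, 67.2 and 57.8 CPM in erlotinib tumours, against 1.81, 3.13 and 3.21 CPM in untreated tumours (4.13, adjusted p = 2.74e-10). Cd28 held 1.79, 21.9 and 8.74 CPM in erlotinib tumours, against 0.124, 0.143 and 0.195 CPM in untreated tumours (6.13, adjusted p = 9.86e-12), and Fasl, the death ligand of cytotoxic cells, 0.584, 3.74 and 0.788 CPM, against 0.0337, 0.112 and 0.0487 CPM untreated (4.66, adjusted p = 1.94e-06). All erlotinib tumours lay above all untreated ones for these genes. The second erlotinib tumour was highest, and it also held 11596 CPM of muscle markers and 304 CPM of epithelial markers, where the untreated tumours held at most 15.3 and at least 3677 CPM. Without the tumours numbered 2 in both arms 15 members rose. The pan-leukocyte markers summed to 322, 1787 and 1466 CPM in erlotinib tumours, against 74.1, 134 and 80.0 CPM in untreated tumours. Elsewhere erlotinib raised 6 members in MMTV-PyMT, Cd4 and Cd28 among them, and lowered 3 in p53RB-426, Cd8a, Tbx21 and Ctsw, where 23.5% and 0.211% of all genes changed. Without the tumours numbered 1, 2 and 3 in turn, MMTV-PyMT had 2, 1 and 4 rises and p53RB-426 had 0, 0 and 1 falls. In KPB1-B it raised Xcl1 (2.22), Nkg7 (2.06) and Cd27 (1.72) and lowered Lat (-1.55), with 21.2% of genes changed; these 3 rises became 0, 0 and 10 in turn and the fall was lost each time. Single calls were Klrk1 in 2153 (-4.05, 3.34% of genes), Lat in E0771 (-2.62, 0.66%), Lck in T11 (-1.83, 0.252%) and Acap1 in KPB25L-UV (2.04, 2.64%). Each of these was lost without the tumours of at least 1 number, and the E0771 call has 1 untreated tumour behind it.

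Carboplatin plus paclitaxel raised 24 members in 2153, 19 in KPB25L, 11 in C3-TAG and 6 in MMTV-PyMT, where 18.8%, 17.4%, 29.5% and 23% of all genes changed. Cd3e held 0.238, 3.47 and 6.13 CPM in treated tumours of 2153, against 0.302, 0.0720 and 1.23 CPM in untreated tumours. The first treated tumour stayed within the untreated range. In KPB25L Cd8a held 5.6, 11.3 and 3.42 CPM with chemotherapy, against 1.14, 0.0420 and 1.37 CPM untreated, with no overlap. In C3-TAG Fcrl6 held 6.40, 47.0 and 5.27 CPM in treated tumours, against 0, 0.00832, 0.155 and 0.137 CPM in untreated tumours (7.92, adjusted p = 1.97e-10), while Cd3e, Cd8a and Cd4 were not called there. The 24 calls in 2153 became 6 and 0 without the treated and untreated tumours numbered 2 and 3. The 19 in KPB25L became 0 and the 11 in C3-TAG became 3, each without those numbered 2. The 6 in MMTV-PyMT became 3, 2 and 2 without those numbered 1, 2 and 3. In 2153 the median log2 change over members was 2.65 with all tumours, and 2.22 and 2.42 without those numbered 2 and 3. In KPB25L it was 2.19, and 1.46 without those numbered 2.

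In KPB1-A 29 members rose with chemotherapy (8.07% of all genes changed), and 1 treated tumour stood far above the other tumours in the genes shown here. Nkg7, a granule protein of cytotoxic cells, held 20.2, 0.0442 and 0.0406 CPM in its treated tumours, against 0.0140, 0 and 0.0376 CPM in untreated tumours; Il2rb held 40.2, 0.28 and 0.294 CPM, against 0.112, 0.133 and 0.251 CPM untreated. Fitted log2 changes were 8.49 and 6.34 (adjusted p = 2.77e-08 and 1.77e-08), and 0 members were called without the tumours numbered 1. That treated tumour held 1031 CPM of pan-leukocyte markers and 8773 CPM of muscle markers, where the other chemotherapy tumours of KPB1-A held at most 69.6 and 1142 CPM.

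T11 went the other way with chemotherapy: 7 members fell (12.5% of all genes changed), namely Cd7, Cd28, Klrd1, Klrb1c, Ncr1, Xcl1 and Fasl. Ncr1 held 0.0479, 0.137 and 0.0920 CPM in treated tumours, against 0.590, 0.676, 1.74 and 0.976 CPM in untreated tumours, with no overlap, while Ccl5 held 20.4, 29.9 and 19.1 CPM in treated tumours and 5.79, 4.92, 16.6 and 9.96 CPM in untreated tumours. No T11 call remained without the tumours numbered 3. E0771 showed 4 falls (Lck, Klrd1, Cxcr6 and Ctsw, 1.42% of genes) against its single untreated tumour. The other chemotherapy calls were rises: Cd8b1 (2.57), Cd3d (2.38) and Il2rb (1.61) in KPB1-B, Fcrl6 (3.96) in KPB25L-UV and Klrb1c (3.67) in MMTV-Neu, where 12.4%, 15.6% and 2.91% of all genes changed. The KPB1-B calls were lost without the tumours numbered 1, the KPB25L-UV and MMTV-Neu calls without those numbered 3, and the E0771 falls without those numbered 2.

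The antibodies raised 14 members in KPB1-A (2.59% of all genes changed). Without the tumours numbered 2, or without those numbered 3, 0 members were called. The median log2 change over members was 2.60 with all tumours, and 1.70 and 2.71 in these settings, where smaller groups also make calls harder to reach. Cd3e held 0.0834, 1.27 and 0.808 CPM in antibody-treated tumours, against 0.0281, 0.0121 and 0.0125 CPM in untreated tumours (adjusted p = 0.00194). The untreated tumours together held 4 counts, which gives a ratio of 43.8 with a 95% counting interval of 17.0 to 162. Xcl1 held 0.0487, 0.799 and 0.350 CPM in antibody-treated tumours, against 0.0140, 0 and 0 CPM in untreated tumours (adjusted p = 0.00365), with a ratio of 97.9 (17.4 to 3885) on 1 untreated count. Pan-leukocyte markers there summed to 74.3, 89.5 and 80.9 CPM in antibody-treated tumours, against 70.4, 56.9 and 77.1 CPM in untreated tumours. Macrophage markers summed to 422, 531 and 521 CPM in antibody-treated tumours, against 268, 253 and 337 CPM in untreated tumours, with no overlap, and their part in the members' change was not tested. Fcrl6 was the one member called in p53RB-426, with 6.90, 2.90 and 19.9 CPM in antibody-treated tumours, against 0.211, 0.360 and 0.0789 CPM in untreated tumours (5.5, adjusted p = 0.000107). It was also the one called in p53RB-626, at 130, 29.5 and 156 CPM with the antibodies, against 14.2, 9.58, 10.3, 44.0, 13.9 and 23.1 CPM untreated. Of all genes 4.8% changed in p53RB-426 and 2.45% in p53RB-626, and Lck was the one member called in T12 (1.19, 12.9% of genes). The p53RB-626 call was lost without the tumours of any 1 number, and the T12 call without those numbered 1 or 2, while 1 member was called in p53RB-426 each time. In E0771 Cd8a held 18.4, 22.4 and 99.9 CPM in antibody-treated tumours and 30.2 CPM in the untreated tumour, so the single untreated value lay within the treated range.

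**Figure D4:**
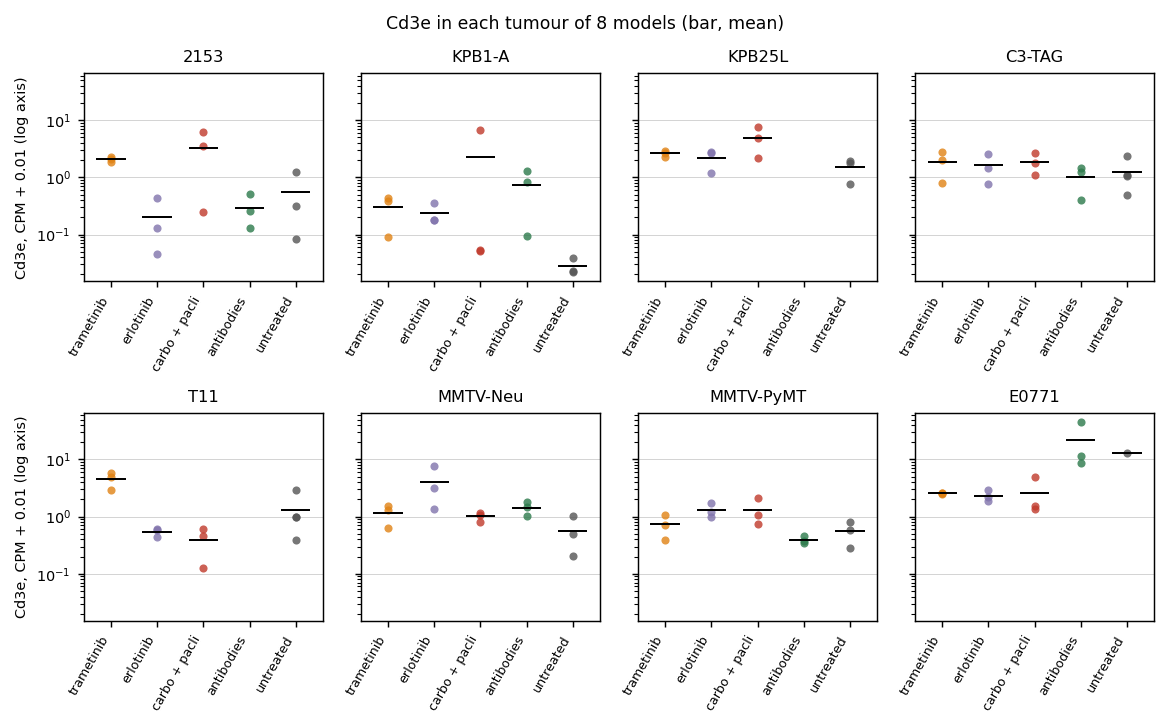
Cd3e in each tumour (points, log axis of CPM) of 8 models by treatment, with the untreated tumours at the right of each panel. Chemotherapy tumours of 2153 and KPB1-A spread over more than 1 order of magnitude, and trametinib tumours of T11 lie above its untreated tumours.

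T cell receptor genes and NK receptor genes were set side by side in each model. The mean log2 level of the T cell receptor genes was higher with trametinib than without treatment in 12 of 16 models, and so was that of the NK receptor genes in 12. With erlotinib the counts were 9 for the T cell and 8 for the NK receptor genes, with chemotherapy 13 for each, and with the antibodies 9 and 7 of 12. Median changes of the T cell receptor genes were 0.64 with trametinib, 0.14 with erlotinib, 0.69 with chemotherapy and 0.34 with the antibodies. Those of the NK receptor genes were 0.34, -0.09, 0.82 and 0.02 in the same order. The T cell change exceeded the NK change in 5, 8 and 6 of 16 models and in 6 of 12. The widest gap in favour of T cell genes was 2.10, in T11-APOBEC with trametinib: Cd8a held 23.1, 7.79 and 23.4 CPM in trametinib tumours, against 1.91, 6.81 and 1.35 CPM in untreated tumours, with no overlap, while Ncr1 held 1.70, 1.29 and 1.54 CPM, against 2.25, 2.74 and 1.92 CPM untreated, also with no overlap. T11 with chemotherapy followed at 1.75. The widest in favour of NK genes with replicates in both arms was -1.08, in MMTV-Neu with trametinib; E0771 with erlotinib gave -1.28 against its single untreated tumour. These are descriptions with no test.

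**Figure D5:**
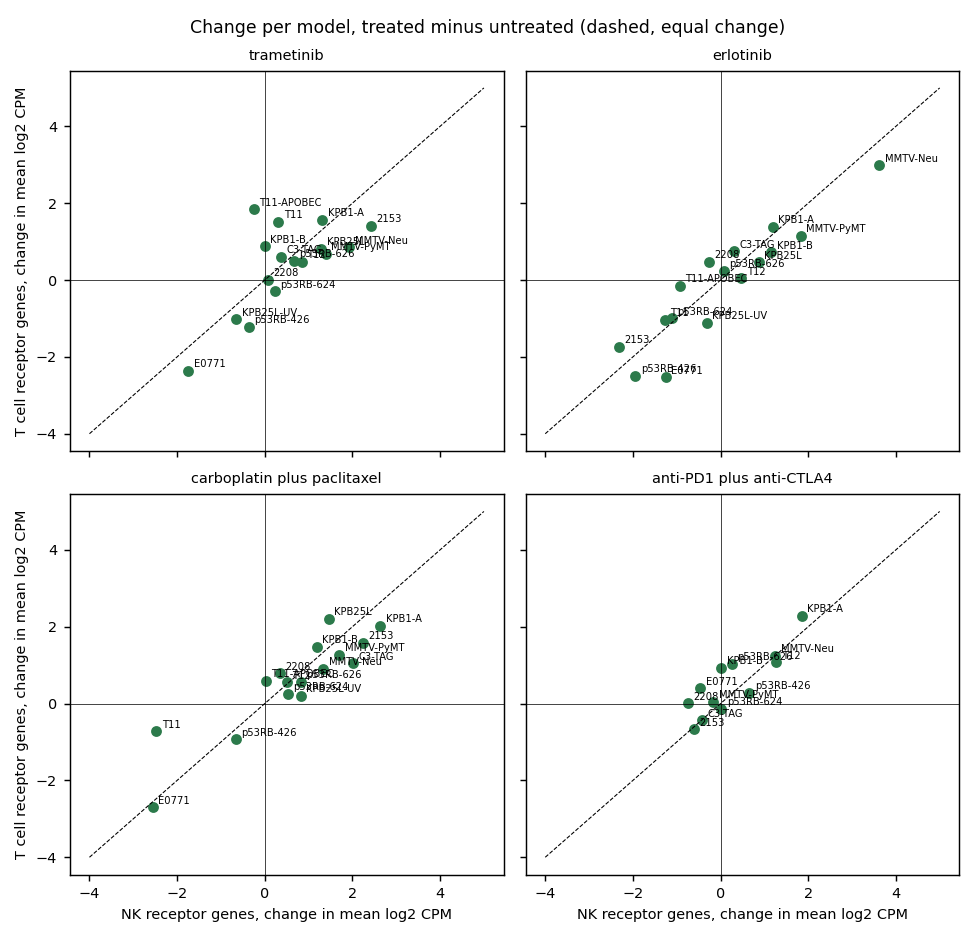
Change of the mean log2 CPM of 8 T cell receptor genes against that of 4 NK receptor genes, treated minus untreated, 1 point for each model and treatment. Most points follow the diagonal, and T11-APOBEC with trametinib and T11 with chemotherapy lie farthest to the T cell side.

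Untreated tumours of 2 derived lines were set against the model they are named after. T11-APOBEC against T11 gave 0 called members by edgeR (0.875% of all genes were called), with 15 at an unadjusted p under 0.05, where 9.72% of all genes were. All 34 point estimates lay above 0 in T11-APOBEC, with a median of 1.36. Cd8a averaged 3.36 ± 3.01 CPM in T11-APOBEC (SD, n = 3) and 0.675 ± 0.337 CPM in T11 (n = 4), a log2 difference of 2.31 ± 0.80 SE (adjusted p = 0.178). Klrb1c averaged 1.36 ± 0.587 CPM in T11-APOBEC and 0.340 ± 0.184 CPM in T11 (adjusted p = 0.189). KPB25L-UV against KPB25L gave 0 called members too (1.1% of all genes), with 2 at an unadjusted p under 0.05 (9.46% of all genes were), a median of 0.59 and 28 members above 0. Cd7 differed most: 14.9, 8.2 and 6.48 CPM in KPB25L-UV, against 2.60, 0.378 and 2.41 CPM in KPB25L (2.46 ± 0.78, adjusted p = 0.101). With groups of 3 and 4 tumours, differences of this size could not be told from the spread between tumours.

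The labels give a median survival for each model and treatment, and the untreated Cd8a level was set against the log2 ratio of treated to untreated survival over models. With chemotherapy Pearson's r was -0.621 over 16 models (permutation p = 0.00926, adjusted over 4 treatments 0.037) and Spearman's rho was -0.475 (permutation p = 0.0659, adjusted 0.264). Without E0771 and KPB1-A, the models farthest in Cd8a, r was -0.468. With the antibodies r was 0.736 over 12 models (permutation p = 0.0238, adjusted 0.0476), rho was 0.459 (permutation p = 0.135, adjusted 0.269), and r was 0.253 without the same 2 models, so the relation rests on them. With erlotinib r was -0.404 and rho -0.217, and with trametinib r was -0.097 and rho 0.015, neither passing (adjusted permutation p of 0.159 or more).

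Other genes of the same pathways were counted from lists. The shares of all genes called, higher and lower, were 17.5% with chemotherapy, 28.2% with trametinib, 4.24% with erlotinib, 8.14% with the antibodies, 18.1% for trametinib against erlotinib and 15.3% for the antibodies against chemotherapy. With chemotherapy 9 of 22 further T cell receptor pathway genes rose and 0 fell, among them the small GTPase Rhoh (0.64). Of 18 further NK receptor and NK transcripts 8 rose, among them Cd244a (0.84) and the adaptor Tyrobp (0.66), and 5 of 7 cytotoxic granule genes, led by perforin (Prf1, 1.79) and granzyme C (Gzmc, 1.13). In the same comparison 5 of 7 macrophage and 3 of 6 neutrophil markers rose, and which cells carried Tyrobp was not measured. Of 10 genes of T cell restraint and exhaustion 7 rose, with the inhibitory receptors Tigit (1.13) and Cd96 (1.04) first. Of 7 gamma delta or innate-like genes 0 rose. Against adjacent untreated tumours (5.87% of genes changed) 1 of 22 pathway genes and 1 of 10 restraint genes rose with chemotherapy. There 0 of 18 NK transcripts, 0 of 7 granule genes, 0 of 7 macrophage and 0 of 5 neutrophil markers were called. With trametinib 3 of 22 pathway genes rose and 3 fell, a share near that of all genes: Il7r, the interleukin 7 receptor, rose by 0.72 and the kinase Fyn fell by 0.27. Of the NK transcripts 1 rose, Klra9 (0.85), and 1 fell, Klrb1b, an inhibitory receptor (-1.0); Klra genes have close copies, so their single values are uncertain. No granule gene changed, and Cd96 (0.52) was the one restraint gene to rise. Of 7 gamma delta genes 3 rose, Trgc1 (0.74) and Trgc2 (0.87) among them. Against adjacent untreated tumours (29% of genes changed) 1 pathway gene rose and 5 fell with trametinib, and 0 NK transcripts rose and 3 fell. There 1 granule gene fell, 1 restraint gene rose and 1 fell, and 0 gamma delta genes were called. With erlotinib 0 genes of these 5 lists passed. Against adjacent untreated tumours (3.38% of genes changed) 4 of 22 pathway genes fell with erlotinib, and no other gene of the 5 lists was called. With the antibodies Prf1 (0.89), Lag3 (0.45) and Icos (0.78) rose and no other gene of the 5 lists passed. Against adjacent untreated tumours 0 genes of the 5 lists passed with the antibodies. Trametinib against erlotinib gave Gzmb (0.64), Serpinb9 (0.26), Pdcd1 (0.61) and Cd96 (0.43) higher and Lcp2 (-0.55), Rhoh (-0.47), Klrb1b (-0.93) and Klra4 (-0.91) lower. In the antibodies against chemotherapy 0 rose, and 4 of 22 pathway genes, 7 of 18 NK transcripts, 1 of 7 granule genes, 3 of 10 restraint genes and 2 of 7 gamma delta genes fell. Leading genes there were Klra7 (-1.62), Klri1 (-1.42), Prf1 (-1.21), Tox (-0.86), Tigit (-0.84) and Zbtb16 (-1.79). The arms of that comparison lay far apart in library number in some models, and the part of this was not tested.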

How the data were processed

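RNA came from cryopreserved tumours by column extraction and poly(A) libraries with a TruSeq mRNA kit, per the labels; the sources used here do not say whether the libraries keep strand. The submitters' processing notes name STAR, SAMtools, Picard, Salmon and the mm10 build, without versions. The authors deposited Salmon's estimated counts per gene symbol, of which 8.35% were not whole, and a second table of a normalized signal, used only as an alternative. Titles gave each tumour's model and treatment. The library names of 3 chemotherapy tumours whose title gives KPB25L-UV begin with KPB25L.

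Estimated counts were rounded and filtered with filterByExpr by model and treatment (28928 of 55291 symbols kept over all tumours), and scaled by TMM in edgeR 4.0.16 (limma 3.58.1, R 4.3.3). CPM use these scaled totals; log2 CPM add a prior count of 2. Tests were edgeR's quasi-likelihood tests with the model as a factor in pooled comparisons, an interaction F-test for differences between models, and contrasts within a fit over all groups for single models. The dispersion trend was estimated from every 5th gene (every 20th in the fit over groups) and interpolated. P-values were adjusted over all genes by Benjamini-Hochberg, and a gene was called under 0.05. They measure the spread between tumours, which the labels do not tie to separate animals; pooled tests take tumours of a model as independent. Counting intervals and floors (95%, 3 counts) cover counting error only. Correlations used 100000 resamples; Python 3 scripts used scipy.

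On simulated counts for trametinib against untreated, log2 changes of 1 were recovered for 100% of changed genes. Changes of 0.5 were recovered for 34% and of -0.5 for 26%. The changed genes averaged at least 1 CPM, shared 1 dispersion and, in this pooled setting, changed alike in every model. Medians of Cd3e, Cd8a and Ncr1 over all tumours were 0.811, 0.692 and 0.513 CPM, so recovery for such members was not measured. Within T12 with trametinib, a change of 2 was recovered for 12%, of 3 for 74% and of 4 for 100%.

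Named genes were Cd3e, Cd8a, Cd4, Ncr1, Klrb1c, Klrk1, Ifng, Ccl5 and Eomes in each comparison, the 3 called members with the largest rise and the 3 with the largest fall, the 3 smallest p within single models for each treatment, and the 2 smallest p of each list. One list gene that this rule names is not reported here. The members, roles and lists were chosen with earlier results of these data known. Alternatives were RLE size factors, no filter, DESeq2 1.42.0, limma on the authors' table (pseudocount 1), leaving out replicates or models, 1 difference per model, and untreated tumours by set label or library number.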

Additional observations from a re-analysis of the deposited data

Results flagged for a closer look

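In 45 combinations of an untreated group of 4 to 10 tumours and a gene, 7 had 1 tumour far from the others by Dixon's rule. The rule's chance rate of about 1 in 20 holds for independent, normally distributed values. Here CPM were not transformed and several of the 7 were correlated genes of 1 tumour, so the count cannot be set against that rate. In KPB1-B, the third tumour held 0.722 CPM of Cd3e, 0.704 CPM of Ncr1, 0.614 CPM of Klrk1 and 0.415 CPM of Eomes, where the nearest other tumour held 0.116, 0.0619, 0.116 and 0.0248 CPM. The second KPB1-B tumour held 3.82 CPM of Ccl5, the nearest other 0.433 CPM. The eighth K14-TRT tumour held 14.8 CPM of Cd8a, the nearest 7.83 CPM, and the fourth C3-TAG tumour 2.95 CPM of Eomes, the nearest 1.2 CPM.

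Responses differed between models by the interaction F-test in 30 of 34 members with trametinib, 32 with erlotinib, 32 with carboplatin plus paclitaxel and 9 with anti-PD1 plus anti-CTLA4. These counts stand beside shares of 57.7%, 52.6%, 46.3% and 34% of all genes.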

How the results depend on the processing

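Counts of called members are given here under the other settings; those not printed stayed within 1.5 times. No paired analysis was possible because the library numbers are unique to each tumour and replicate numbers come only from accession order. With 1 difference per model (limma), 0 members passed in each pooled comparison. For erlotinib, chemotherapy, the antibodies and antibodies against chemotherapy 0 of all genes passed either, so that 0 shows nothing particular to the members. For trametinib 1134 of 25685 genes passed, and for trametinib against erlotinib 252 of 23207. With untreated tumours of the same set label, 7 members passed for trametinib and 7 for chemotherapy. DESeq2 called 7 for the antibodies and 13 for antibodies against chemotherapy. Limma on the authors' table called 1 for erlotinib and 3 for antibodies against chemotherapy. Without the tumours highest in B cell markers, erlotinib gave 1 and the antibodies 1. Settings that left out a model were chosen after seeing the data: without E0771, trametinib gave 20, antibodies against chemotherapy 15, and the adjacent comparisons 9 for trametinib, 1 for erlotinib and 3 for chemotherapy. Without MMTV-Neu the counts were 7 for trametinib, 1 for erlotinib and 2 for the antibodies, without 2153 5 for trametinib, without KPB1-A 1 for the antibodies and without T11-APOBEC 9 for trametinib against erlotinib. Calls within single models, fitted on the tumours compared alone, numbered 95 for trametinib and 33 for chemotherapy, against 29 and 105. With Ncr1 in place of Cd8a, the survival correlation was 0.048 for trametinib and -0.129 for the antibodies, both of opposite sign. It kept its sign for erlotinib (-0.344) and for chemotherapy, at -0.641 (adjusted permutation p = 0.0296). Spearman's rho for chemotherapy was -0.602 (adjusted permutation p = 0.0637), and r was -0.535 without p53RB-626 and KPB1-A.

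Leaving out the tumours numbered 1, 2 or 3 from every group at once moved the counts further. Smaller groups also make a call harder to reach. A lost call alone therefore does not show that a change rested on the tumours left out. Differences between models ranged from 5 to 30 for trametinib, 25 to 31 for erlotinib, 10 to 30 for chemotherapy and 0 to 3 for the antibodies. Pooled counts ranged from 3 to 10 for trametinib, 5 to 10 for chemotherapy, 0 to 1 for the antibodies, 3 to 8 for trametinib against erlotinib and 0 to 3 for antibodies against chemotherapy. Adjacent counts were 1 for trametinib, 0 for erlotinib and 0 to 1 for chemotherapy. Calls within single models ranged from 9 to 31 for trametinib, 17 to 45 for erlotinib, 54 to 75 for chemotherapy and 1 to 15 for the antibodies. Of values of single named genes under all settings, 281 kept their direction and side of the threshold, 121 kept their direction but no longer passed, and 0 reversed.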
